A study of Mus musculus with 9 samples.

Results

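Adenosine is a signalling nucleoside that builds up outside cells when released ATP is broken down. Ecto-nucleotidases such as CD39 and CD73 make it from extracellular ATP and AMP, a family of G protein-coupled receptors senses it, and transporters, adenosine deaminase and adenosine kinase remove it. The receptors encoded by Adora2a and Adora2b couple to Gs and raise cAMP, whereas those of Adora1 and Adora3 couple to Gi and lower it. In microglia, the macrophages of the brain, adenosine is known as a regulator of process movement and of inflammatory output.

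The 7 genes described here are the receptor genes Adora1, Adora2a, Adora2b and Adora3, the CD73 gene Nt5e, the adenosine deaminase gene Ada and the adenosine kinase gene Adk. They were matched by symbol among 24411 gene rows, and all 7 were found. RNA sequencing covered 9 libraries of primary microglia from ICR mice, in 3 groups of 3. Whole brains of 3-day-old pups were dissociated, glia were grown for 2 weeks, and microglia were shaken off at 110 rpm for 55 min. The cells were plated for 24 h and treated for 4 h with 1 µM R848, with 100 U/ml IFN-α, or with both agents (the combined group). Resiquimod (R848) activates Toll-like receptor 7, an endosomal sensor of single-stranded RNA, and IFN-α is a cytokine of the antiviral response. All groups received an agent, a control group that the design text names is not analysed here, and so no value below is a change from untreated cells. The labels do not say whether replicates came from separate cultures, so p-values describe only how these libraries scatter, and that scatter may be technical.

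Gene counts on the reverse strand totalled 2817772 to 3298567 per library with R848, 2505941 to 2852960 with IFN-α and 2795385 to 6005578 in the combined group, where replicate 3 was the deepest. Log2 levels correlated at 0.967 or more within groups and at 0.8195 to 0.9017 between groups, across genes. Transcripts of the microglial genes Csf1r and Itgam were present in every library, but Tmem119, a marker of mature microglia, averaged 3.81 ± 0.282 CPM (counts scaled to library size; SD, n = 3) with R848, 2.88 ± 1.18 with IFN-α and 0.393 ± 0.402 in the combined group. The astrocyte gene Aqp4 averaged 494 ± 123 CPM, 280 ± 16.0 CPM and 1048 ± 157 CPM in the same order, so the libraries also hold astrocyte transcripts. Not all astrocyte markers were ordered like Aqp4, as given below. In such bulk RNA, fewer cells of a type and less RNA per cell cannot be told apart.

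The Gs-coupled receptor genes Adora2a and Adora2b differed most between the groups. Both were near 0 with IFN-α alone, highest with R848 alone and lower again when IFN-α was given with R848. Ada ran the other way, with its highest level under IFN-α. Adora1 and Adk passed no test, and Adora3 and Nt5e were too low to be tested. A test here is edgeR's quasi-likelihood F test on counts, with Benjamini-Hochberg adjustment over all 11002 genes that passed a low-count filter and a threshold of 0.05 on the adjusted p.

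The stretches of 250 bases before the start sites of Adora2b and Ada are shown because the levels of these members differed in opposite directions between R848 and IFN-α. They come from RefSeq on GRCm38.p6, where 6 of the 7 members matched and Adora2a did not. Capitals mark matches to a loose kappaB pattern (GGG, any 5 bases, CC) on either strand, and overlapping matches are merged. The Adora2b stretch lies at chr11:62248734-62248983 on the plus strand, and the Ada stretch at chr2:163750240-163750489 is written 5′ to 3′ along the minus strand.
Adora2b: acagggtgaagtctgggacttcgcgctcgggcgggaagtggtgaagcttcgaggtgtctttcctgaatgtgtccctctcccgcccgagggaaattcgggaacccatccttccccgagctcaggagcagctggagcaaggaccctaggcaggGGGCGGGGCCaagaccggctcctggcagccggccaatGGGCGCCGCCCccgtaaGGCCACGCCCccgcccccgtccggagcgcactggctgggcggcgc
Ada: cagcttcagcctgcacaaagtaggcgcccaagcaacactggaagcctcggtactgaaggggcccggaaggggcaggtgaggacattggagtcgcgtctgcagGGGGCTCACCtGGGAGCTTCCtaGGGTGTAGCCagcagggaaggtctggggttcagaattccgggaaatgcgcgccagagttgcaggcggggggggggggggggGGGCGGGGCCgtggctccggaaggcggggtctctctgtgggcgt

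The Adora2b stretch held 4 kappaB pattern matches, which begin 99, 62, 61 and 45 bases before the start, and 6 matches to the GC box GGGCGG. The Ada stretch also held 4 kappaB matches, at 148, 137, 125 and 44 bases, and 1 match to the GC box. Neither held an interferon-response core (GAAA, any 2 bases, GAAA). Over 32851 windows of 250 bases before RefSeq gene starts, 45.8% held the kappaB pattern, 32.7% the GC box and 2.98% the interferon-response core, on either strand. The kappaB and GC box patterns overlap in G- and C-rich sequence, and these stretches had 69.6% and 67.2% G and C. The matches describe letters only, and their relation to the levels of these genes was not tested.

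Adora2a encodes the Gs-coupled receptor with high affinity for adenosine. It lies at chr10:75316877-75334784 on the plus strand of GRCm38. Its level was 38.5, 32.6 and 34.4 CPM in R848 replicates 1, 2 and 3, from 133, 103 and 116 counts. With IFN-α it was 0.387, 0 and 0.636 CPM, which are 1, 0 and 2 counts. In the combined group it was 21.7, 21.6 and 23.3 CPM. All R848 libraries were above all combined libraries, and all of these were far above the IFN-α libraries, with no overlap between any pair of groups.

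The Adora2a level averaged 35.1 ± 3.03 CPM (SD, n = 3) under R848, 0.341 ± 0.321 under IFN-α and 22.2 ± 0.980 CPM in the combined group. Over the summed counts, R848 exceeded IFN-α 99.7-fold (95% counting interval 33.8 to 486) and the combined group exceeded IFN-α 63.6-fold (21.5 to 311). These intervals are wide because the IFN-α group held 3 counts in all, and they cover counting error only. The fitted log2 differences were 6.49 ± 0.35 (SE; adjusted p = 8.14e-16) for R848 over IFN-α and 5.83 ± 0.39 (adjusted p = 1.91e-13) for the combined group over IFN-α. These SE were derived from the test statistic, as the log2 difference divided by the square root of F. With 3 counts under IFN-α they are too narrow, and the counting intervals above are wider. Between the groups that both had R848, Adora2a was 1.57-fold lower with IFN-α added (log2 difference -0.65 ± 0.16, adjusted p = 0.00179).

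Adora2b encodes the Gs-coupled receptor that needs higher adenosine concentrations. Its locus is chr11:62248984-62266453 on the plus strand, next to the stretch printed above. It measured 45.4, 37.0 and 39.4 CPM in R848 replicates 1, 2 and 3, from 157, 117 and 133 counts. The IFN-α libraries gave 1, 0 and 2 counts, the same counts as for Adora2a. The combined libraries gave 23.9, 25.1 and 18.1 CPM. Again the groups were ordered R848, combined, IFN-α, and no library of one group reached into another.

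Adora2b had means of 40.6 ± 4.34 CPM under R848, 0.341 ± 0.321 CPM under IFN-α and 22.4 ± 3.73 CPM under both (SD, n = 3). Its ratio over IFN-α in summed counts was 115-fold with R848 (39.2 to 561) and 60.2-fold in the combined group (20.3 to 294). The fitted log2 differences were 6.70 ± 0.36 (adjusted p = 7.03e-16) and 5.79 ± 0.41 (adjusted p = 8.95e-13). As for Adora2a, these SE are too narrow with 3 counts under IFN-α, and the counting intervals are wider. Adora2b was 1.87-fold lower in the combined group than with R848 alone (log2 difference -0.90 ± 0.17, adjusted p = 7.25e-05). Whether Adora2b and Adora2a differed from each other in that fall was not tested.

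Markers of glial cell types also differed between the groups. The summed level of 16 microglial markers ran from 3741 to 4089 CPM with R848, 5506 to 5977 CPM with IFN-α and 4176 to 4635 CPM in the combined group, with none at 0 in a whole group. That of 11 astrocyte markers ran from 1459 to 1716 CPM, 1165 to 1469 CPM and 2395 to 3443 CPM, again with none at 0. Of the 10 astrocyte markers tested, 2 were called higher and 4 lower in R848 over IFN-α, with a median log2 difference of -0.40. In combined over R848, 9 were higher and 0 lower. Of all tested genes, 18.4% were higher and 19% lower in R848 over IFN-α. In combined over R848 these shares were 19.2% and 16.7%. Adora2a and Adora2b were thus lowest where the summed microglial markers were highest, and between R848 and the combined group they fell while the astrocyte markers were higher in the latter. The part of cell makeup in these differences was not tested.

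**Figure D1:**
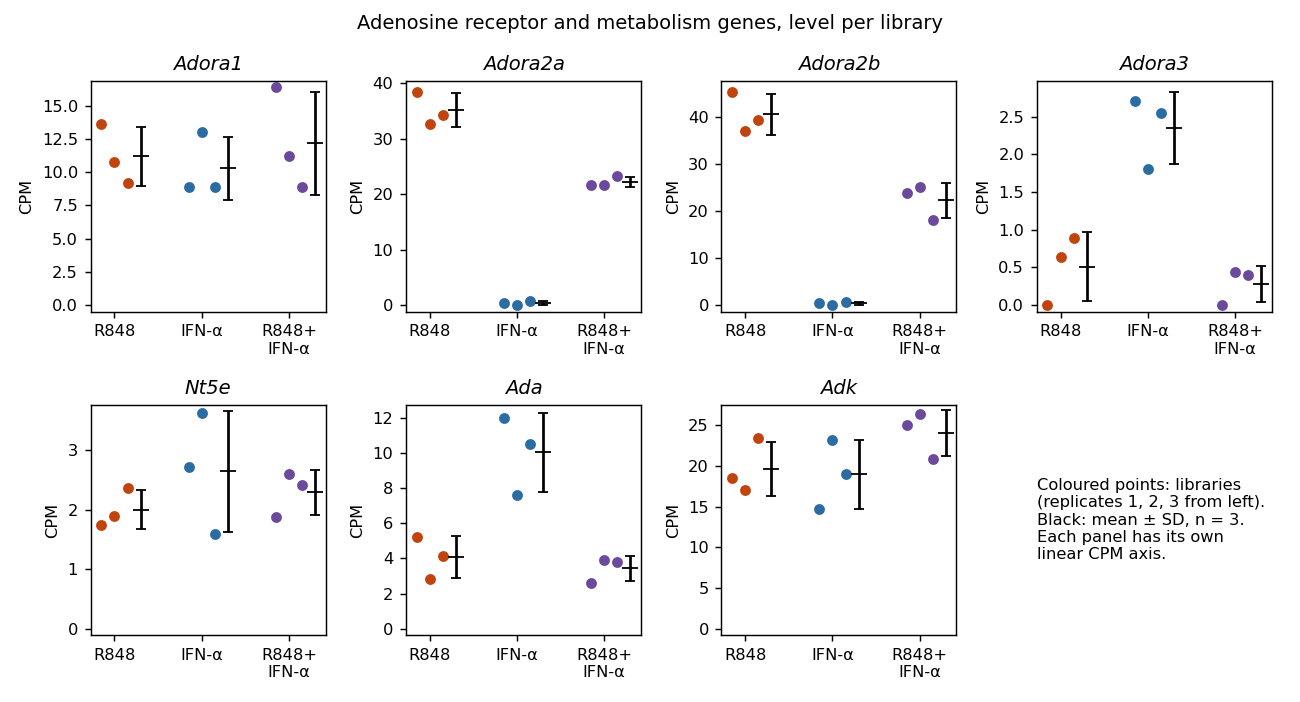
Level of each of the 7 genes in CPM (vertical axis, linear, with its own range in each panel) by treatment group. Coloured points are libraries and black marks are the mean ± SD of 3. Adora2a and Adora2b are near 0 in the IFN-α libraries and lower in the combined than in the R848 libraries, whereas Ada is highest with IFN-α.

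Adora1 encodes the A1 receptor, a Gi-coupled receptor best known for damping synaptic transmission, and maps to chr1:134199223-134235431 on the minus strand. Adora1 was measured at 13.6, 10.8 and 9.18 CPM in the R848 libraries, 8.91, 13.0 and 8.91 CPM in the IFN-α libraries, and 16.4, 11.2 and 8.85 CPM in the combined group. The 3 groups overlapped throughout.

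The Adora1 means were 11.2 ± 2.24, 10.3 ± 2.39 and 12.2 ± 3.88 CPM (SD, n = 3). The 95% limits of the log2 difference were -0.38 to 0.63 for R848 over IFN-α, -0.42 to 0.55 for combined over R848 and -0.31 to 0.70 for combined over IFN-α, and the adjusted p was 0.75, 0.862 and 0.612. Differences within those limits remain compatible with these data. In the GENCODE annotation, 1162 of its 5785 exon bases (20.1%) overlap Mybph on the other strand, which the strand-specific counts keep apart.

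Adora3 encodes the A3 receptor, the other Gi-coupled type, and maps to chr3:105870858-105908926 on the plus strand. It had 0, 2 and 3 counts in the R848 libraries, 7, 5 and 8 in the IFN-α libraries and 0, 1 and 2 in the combined libraries. In CPM the IFN-α libraries lay at 1.81 to 2.71, above the highest R848 library at 0.889 and the highest combined library at 0.432.

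Over summed counts, Adora3 was 4.71-fold higher with IFN-α than with R848 (95% counting interval 1.72 to 16.1) and 7.83-fold higher than in the combined group (2.32 to 41.1). It was below the low-count filter. Fitted without that filter, the log2 difference was -2.15 ± 0.77 for R848 over IFN-α (adjusted p = 0.0271) and -2.82 ± 0.85 for combined over IFN-α (adjusted p = 0.00679). DESeq2 gave an adjusted p of 0.108 for the first and 0.0494 for the second. The level is uncertain at these counts. In the GENCODE annotation, 779 of its exon bases (20.9%) are shared with Tmigd3 on the same strand. Reads there would be assigned to neither gene if the annotation used for counting, which is not given, held the same overlap.

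The makeup of the receptor transcripts was compared as CPM per kb of exon, which allows levels of genes of different length to be set side by side. The 4 receptors summed to 32.7 to 39.6 CPM per kb with R848, 2.60 to 2.77 with IFN-α and 19.1 to 22.9 in the combined group. With R848, Adora2b made up 61.3% to 62.3% of that sum, Adora2a 31.8% to 32.6% and Adora1 4.61% to 5.95%. With IFN-α, Adora1 made up 55.5% to 82.3% and Adora3 17.7% to 27.9%. The combined libraries were made up much like those of R848, with Adora2b at 51.5% to 59.9%, Adora2a at 30.9% to 40.0% and Adora1 at 8.02% to 12.4%. By this measure, Gs-coupled receptors made up most of the sum wherever R848 was present, and Gi-coupled receptors with IFN-α alone. Adora1 itself passed no test, at 1.93, 1.78 and 2.10 CPM per kb with R848, IFN-α and both agents. Its larger share with IFN-α goes with Adora2a and Adora2b near 0. Neuronal and oligodendrocyte-lineage markers were present too (mean sums of 159.4 and 691.2 CPM with IFN-α). The cells that held the receptor transcripts were not identified. The exon lengths are those of all annotated exons merged, and shares would shift if shorter isoforms were used.

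**Figure D2:**
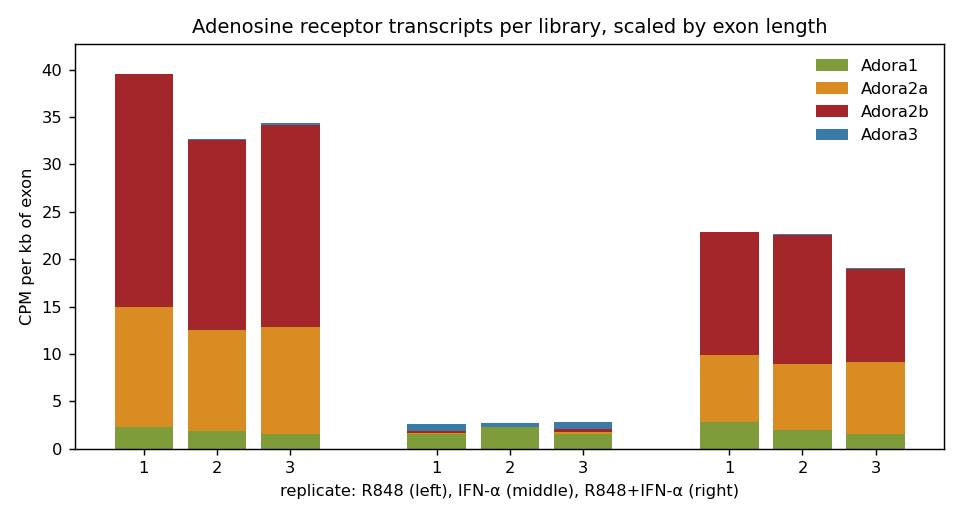
Transcript level of the 4 adenosine receptors in each library, in CPM per kb of exon (vertical axis, from 0), stacked by receptor, with replicates 1 to 3 of each group side by side. R848 libraries reach 32.7 to 39.6, combined libraries 19.1 to 22.9 and IFN-α libraries 2.60 to 2.77, and Adora2b and Adora2a fill most of each bar wherever R848 was given.

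Nt5e encodes CD73, the ecto-enzyme that turns extracellular AMP into adenosine, and maps to chr9:88327197-88372092 on the plus strand. It had 6, 6 and 8 counts with R848, 7, 10 and 5 with IFN-α and 5, 6 and 12 in the combined group, or 2.00 ± 0.329, 2.64 ± 1.02 and 2.29 ± 0.377 CPM. The groups overlapped. The counting ratio was 0.772 for R848 over IFN-α (95% interval 0.40 to 1.48), 1.15 for combined over R848 (0.606 to 2.21) and 0.891 for combined over IFN-α (0.474 to 1.68). Changes within those intervals remain compatible with the counts at this depth.

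Ada encodes adenosine deaminase, which turns adenosine into inosine. It lies at chr2:163726584-163750239 on the minus strand, directly beside the stretch printed above. Its level was 5.21, 2.85 and 4.15 CPM under R848 (18, 9 and 14 counts) and 12, 7.61 and 10.5 CPM with IFN-α (31, 21 and 33 counts). In the combined group it was 2.62, 3.89 and 3.82 CPM (7, 9 and 19 counts). Every IFN-α library was above every library that had R848, and the R848 and combined libraries overlapped.

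Ada averaged 4.07 ± 1.18 CPM under R848, 10.03 ± 2.24 under IFN-α and 3.44 ± 0.716 CPM in the combined group (SD, n = 3). It was 2.43-fold higher with IFN-α than with R848 (log2 R848 over IFN-α -1.28 ± 0.31, adjusted p = 0.00118). It was 2.85-fold higher with IFN-α than in the combined group (log2 combined over IFN-α -1.51 ± 0.32, adjusted p = 0.000384). Combined against R848, the log2 difference was -0.23 with 95% limits of -0.94 to 0.48 (adjusted p = 0.667). The summed microglial markers given above were also highest with IFN-α, and their part in the Ada difference was not tested.

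Adk encodes adenosine kinase, which turns adenosine back into AMP and in brain is prominent in astrocytes. Its locus is chr14:21052574-21448569 on the plus strand. Adk was measured at 18.5, 17.1 and 23.4 CPM in the R848 libraries, 14.7, 23.2 and 19.1 CPM in the IFN-α libraries and 25.03, 26.3 and 20.9 CPM in the combined group. The groups overlapped, although the highest 2 values were combined libraries.

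The Adk means were 19.7 ± 3.31, 19.0 ± 4.23 and 24.1 ± 2.83 CPM (SD, n = 3). The log2 difference was 0.05 for R848 over IFN-α (95% limits -0.33 to 0.42, adjusted p = 0.879), 0.26 for combined over R848 (-0.09 to 0.62, adjusted p = 0.274) and 0.31 for combined over IFN-α (-0.06 to 0.68, adjusted p = 0.216). The summed astrocyte markers were highest in the combined group too, and their part in the Adk levels was not tested.

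Of the 7 members, 5 passed the low-count filter. In R848 over IFN-α, 2 of these were higher (Adora2a and Adora2b), against 18.4% of all tested genes called higher, and 1 was lower (Ada), against 19% called lower. In combined over R848, 0 were higher, against 19.2% of all genes, and 2 were lower (Adora2a and Adora2b), against 16.7%. In that comparison 0 were also higher at an unadjusted p under 0.05 or with DESeq2. In combined over IFN-α, 2 were higher (Adora2a and Adora2b), against 18.5%, and 1 was lower (Ada), against 14.7%. With all 3 groups in 1 test, 3 of 5 members were called (Adora2a, Adora2b and Ada), against 50.3% of all tested genes. With 5 tested members the counts are too small to set these shares apart from the background. The members' median log2 difference was 0.13, -0.23 and 0.31 in the 3 comparisons, beside 0.02, -0.03 and -0.01 over all tested genes. These comparisons share groups and are not independent of each other.

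**Figure D3:**
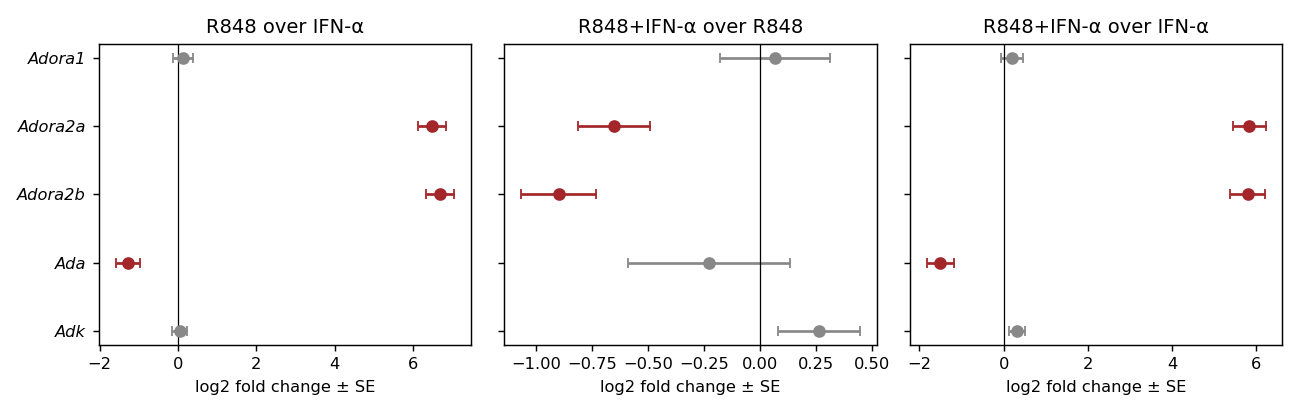
Fitted log2 fold change ± SE (horizontal axis, with a different range in the middle panel) of the 5 tested genes in each comparison. Red points passed the threshold and grey points did not. Adora2a and Adora2b are at 5.79 to 6.70 over IFN-α and at -0.65 and -0.90 in combined over R848. The SE were derived from the test statistic and are too narrow for Adora2a and Adora2b over IFN-α.

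The levels of Adora2a and Adora2b over the 9 libraries correlated at r = 0.9976 on the log2 scale, a value set mainly by the differences between the 3 groups. By the same measure the genes most like Adora2a were Tnfaip2 (0.9979), Stx6 (0.9970) and Osgin2 (0.9968). Those most like Adora2b were Fpr1 (0.9964), Rac2 (0.9955) and Tnfaip2 (0.9953). Fpr1, the formyl peptide receptor, averaged 437 CPM with R848, 4.37 with IFN-α and 201 in the combined group. For Ada the closest were Tceanc2 (0.9695), Fgd2 (0.9628) and Hemk1 (0.9619), and Fgd2 averaged 0.39 CPM, 5.48 CPM and 0.067 CPM in the same order. Adora1 was closest to Supt7l (0.9370), and Adk to Nkain2 (0.9132). All these values rest on 9 libraries that share 3 treatments.

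Of 12 genes listed for the breakdown of extracellular nucleotides, 6 were tested. In R848 over IFN-α, 2 were higher and 2 lower. Entpd1, which encodes CD39 and turns ATP and ADP into AMP, had 9.94 ± 1.20 CPM with R848, 103 ± 6.20 with IFN-α and 57.9 ± 8.52 in the combined group (log2 R848 over IFN-α -3.37 ± 0.15; combined over R848 2.53 ± 0.16). Acpp, whose transmembrane form can dephosphorylate AMP to adenosine, had 164 ± 8.05 CPM, 1.77 ± 0.629 CPM and 66.4 ± 5.00 CPM. Cd38, an NAD-consuming ecto-enzyme, had 282 ± 18.7, 62.3 ± 2.03 and 192 ± 16.7 CPM. Acpp and Cd38 were thus ordered like Adora2a and Adora2b, and Entpd1 the opposite way. In combined over R848, 1 was higher and 2 lower. In combined over IFN-α, 2 were higher and 2 lower, and the call of Enpp1, which splits ATP, was lost without IFN-α replicate 1 or 3 or combined replicate 1 or 3, leaving 1. The list's median log2 difference was -0.38, 0.11 and -0.27.

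Of 25 genes listed for intracellular adenosine and purine salvage, which include the steps after Ada and beside Adk, 21 were tested. In R848 over IFN-α, 6 were higher and 6 lower, with a median of 0.10. Ampd3, an AMP deaminase, had 338 ± 72.1 CPM with R848, 27.5 ± 4.32 with IFN-α and 169 ± 19.6 in the combined group, the same order as Adora2a and Adora2b. Pnp, the phosphorylase that acts on the inosine made by Ada, had 126 ± 11.6, 489 ± 5.61 and 869 ± 71.1 CPM, highest in the combined group. Its close copy Pnp2 followed the same order at low counts, which are uncertain. Xdh, which makes uric acid, had 56.2 ± 9.54, 325 ± 32.5 and 213 ± 19.9 CPM, and Nt5c3, a cytosolic nucleotidase, 7.88 ± 1.83, 78.6 ± 3.51 and 106 ± 5.39 CPM.

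Unlike Ada, then, Pnp and Nt5c3 were higher with both agents than with IFN-α (log2 combined over IFN-α 0.83 ± 0.09 and 0.44 ± 0.11), the latter not so under scaling by library totals alone. In combined over R848, 5 of the 21 were higher and 8 lower (median -0.15), but 5 were lower without R848 replicate 3, combined replicate 1 or combined replicate 3. In combined over IFN-α, 5 were higher and 5 lower (median -0.02). Gda, guanine deaminase, had 12.7 ± 2.00, 47.1 ± 3.83 and 21.4 ± 4.06 CPM, highest with IFN-α as was Ada.

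Of 11 genes for nucleoside transport and ATP release, 5 were tested. In R848 over IFN-α, 1 was higher and 2 lower. Slc29a1, the ENT1 transporter that carries adenosine across the cell membrane, had 47.7 ± 5.17 CPM with R848, 28.6 ± 3.48 with IFN-α and 20.8 ± 2.92 in the combined group. Slc29a3, a transporter of lysosomes, had 9.05 ± 2.02, 57.4 ± 3.49 and 15.9 ± 3.59 CPM. In combined over R848, 3 were higher and 1 (Slc29a1) was lower, with a median log2 difference of 0.43. One of the 3 was Slc28a2, a concentrative transporter at 16.0 ± 1.85 CPM in the combined group, from levels of 0.806 ± 0.199 and 1.23 ± 0.928 CPM with R848 and IFN-α, and a close copy makes its counts uncertain. In combined over IFN-α, 1 was higher and 2 lower, but 1 was lower without IFN-α replicate 2 or 3 or combined replicate 1 or 2, where Slc29a1 lost its call. Gja1, listed here and among the astrocyte markers, had 55.7 ± 13.4, 77.1 ± 3.70 and 76.0 ± 11.4 CPM.

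Of 33 genes for cAMP signalling, the pathway of the Gs-coupled receptors, 27 were tested. In R848 over IFN-α, 5 were higher and 6 lower (median -0.09). Pde4b, a phosphodiesterase that breaks down cAMP, had 444 ± 20.2 CPM with R848, 32.2 ± 4.86 with IFN-α and 655 ± 64.8 in the combined group (log2 R848 over IFN-α 3.78 ± 0.11; combined over IFN-α 4.34 ± 0.12). Pde7b, another cAMP phosphodiesterase, had 2.71 ± 0.126, 120 ± 17.1 and 34.0 ± 3.90 CPM, highest with IFN-α and lowest with R848. Crem, a cAMP-responsive transcription factor, had 10.6 ± 3.04, 38.8 ± 5.39 and 62.4 ± 4.66 CPM, lowest where Adora2a and Adora2b were highest. In combined over R848, 4 were higher and 6 lower (median -0.03), and 3 were lower without combined replicate 3. In combined over IFN-α, 6 were higher and 7 lower (median -0.08). Adcy7, an adenylyl cyclase, had 83.0 ± 4.33, 98.1 ± 9.06 and 63.1 ± 2.35 CPM, and Prkar2b, a regulatory subunit of protein kinase A, had 9.94 ± 1.20, 1.34 ± 0.657 and 1.86 ± 1.14 CPM. The lists thus moved in no single direction. Of all tested genes, 18.4% were higher and 19% lower in R848 over IFN-α. The shares were 19.2% and 16.7% in combined over R848, and 18.5% and 14.7% in combined over IFN-α. Whether the share of any list differed from these was not tested.

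**Figure D4:**
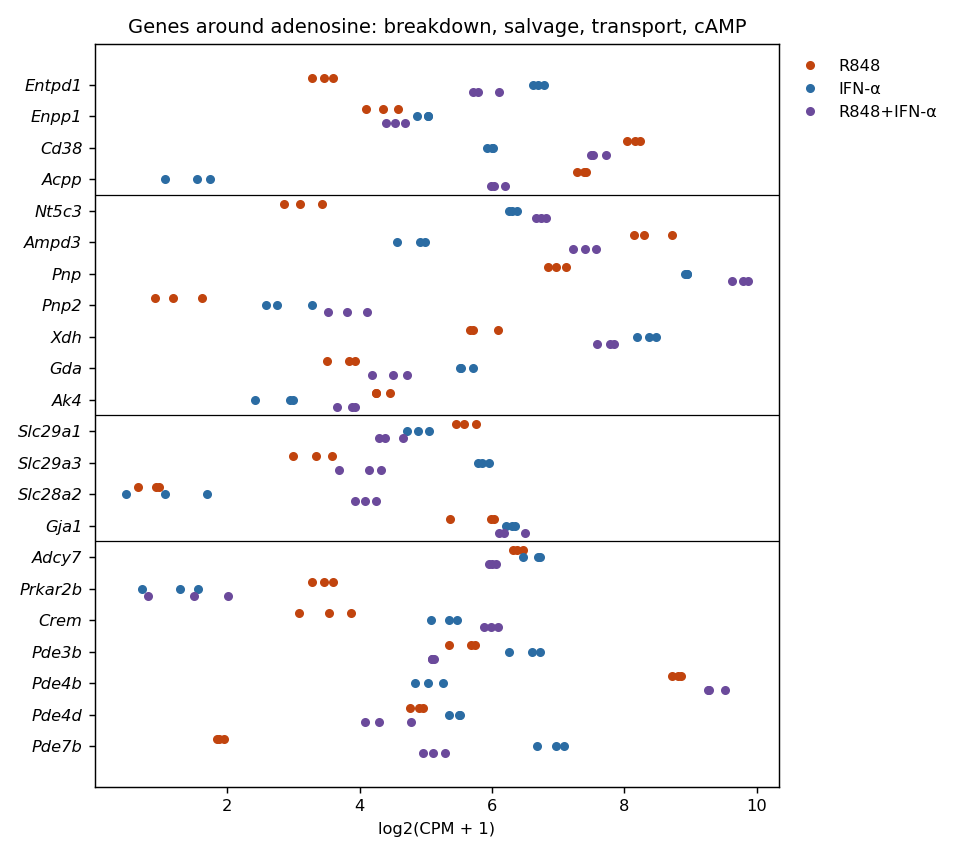
Level of 22 genes around adenosine in each library, as log2(CPM + 1) (horizontal axis), coloured by group, with lines between genes of nucleotide breakdown, salvage, transport and cAMP signalling. Acpp, Cd38 and Ampd3 are highest with R848, Entpd1, Xdh and Pde7b are highest with IFN-α, and Pnp, Nt5c3 and Slc28a2 are highest in the combined libraries.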

How the data were processed

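The authors deposited whole-number read counts per gene for each of 9 libraries, not normalized. Per the submitters' processing notes, CASAVA 1.8.2, Trimmomatic 0.33, STAR 2.5.1, DESeq2 and the build mm10 were used, and the sources used here do not give the annotation. Reverse-strand counts were used, because the forward strand held 1.09% to 1.50% of stranded counts. Summary rows that name no gene were left out: reads in no gene made up 39.3% to 44.4% of read pairs. The ribosomal transcript Rn45s held 13.35% to 26.1% of gene counts. STAR does not count reads that map to several places, so genes with close copies are uncertain.

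The low-count filter was filterByExpr in edgeR (minimum count 10, total 15), which kept 11002 genes. TMM scaling and a robust quasi-likelihood fit of 3 group means to all 9 libraries used edgeR 4.0.16 with limma 3.58.1 in R 4.3.3, and DESeq2 1.42.0 was an alternative. The script was tested on simulated data. CPM use TMM-scaled totals, fold changes come from the fit, and errors are SD for CPM and SE for log2 differences. Genes under the filter are described by exact intervals on summed counts (95%). Correlations of levels use log2 CPM with a prior count of 2. Positions and exon lengths are from GENCODE M21 on GRCm38, and sequences from RefSeq.

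The members and the gene lists were chosen with earlier results of these data known. All 7 members were described. Of each list, up to 4 called genes per comparison with the largest absolute log2 difference and at least 2 CPM in the higher group could be named, and Entpd1, Slc29a1, Slc29a3, Pnp, Ampd3, Crem, Pde4b and Adcy7 were given whatever they showed. Likeness named the 3 genes with the highest Pearson correlation, leaving out predicted and clone-named genes. Other scalings, filters, strands, fits and left-out libraries were tried as alternatives. Each library counted as 1 sample. Replicate pairs of a group differed by more than sampling noise (chi-square per degree of freedom 1.92 to 6.27, without Rn45s). That does not show whether they came from separate cultures.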

Additional observations from a re-analysis of the deposited data

How the results depend on the processing

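Adora2a and Adora2b were called in all 3 comparisons under all 21 alternatives, Ada over IFN-α under the 20 that tested it, and Adora1 and Adk under none. Ada in combined over R848 was called under none of 19. In combined over R848, Adora2a ranged from -1.04 to -0.57 and Adora2b from -1.28 to -0.63 on the log2 scale. Scaling by library totals alone moved the median of all genes in combined over R848 to -0.42 and over IFN-α to -0.32, and upper-quartile factors moved the former to -0.17. Relative to that median, Adora2a stayed at -0.62 and Adora2b at -0.86 to -0.87.

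The number of members lower with R848 than with IFN-α was 2 without the low-count filter, where Adora3 joined Ada, and 0 with a stricter filter of 30 counts, which left Ada untested. In combined over IFN-α it was 2 without the filter, 2 with DESeq2 and 0 with the stricter filter. Leaving out 1 library gave 2 members higher and 1 lower over IFN-α each time, and 0 higher and 2 lower in combined over R848.

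Over all genes, library totals alone gave 1173 higher and 4984 lower in combined over R848 (in place of 2112 and 1835), and 1044 higher and 3768 lower in combined over IFN-α (in place of 2035 and 1617). The share of higher among called genes fell from 53.5% to 19.1% and from 55.7% to 21.7%. Upper-quartile factors gave 2861 lower in combined over R848, with shares of 37.5% and 44.8%, and DESeq2 gave 1198 lower. With library totals alone, 13 salvage genes and 13 cAMP genes were lower in combined over R848, and 9 and 11 in combined over IFN-α. Transport genes then numbered 1 lower in R848 over IFN-α, and 1 higher and 2 lower in combined over R848, and higher cAMP genes numbered 2 and 1 in combined over R848 and over IFN-α. DESeq2 gave 5 lower salvage genes in combined over R848, and 1 lower gene each for nucleotide breakdown and transport in combined over IFN-α. Without the low-count filter, 2 transport genes were lower in combined over R848 and 1 in combined over IFN-α. The cause was not tested. Without the deepest library of R848 and of the combined group together, chosen after seeing the data, 3 salvage and 3 cAMP genes were lower in combined over R848.

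Same-numbered libraries showed no large joint deviation from their group means (correlations -0.101 to 0.0587). Whether they shared a culture cannot be decided from this, because a small shared effect could go unseen and the labels do not say. With a replicate block, 2036 genes were higher and 2111 lower in R848 over IFN-α, 2142 and 1853 in combined over R848, and 2077 and 1624 in combined over IFN-α. The block changed 0 of 81 gene-level calls. Depth limits Adora3 and Nt5e, with at most 8 and 12 counts per library.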
